A study of Mus musculus with 8 samples.

Results

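Open chromatin of Pgr knockout granulosa cells collected after hCG was compared with that of wild-type granulosa cells collected before hCG. The comparison used 4 of the 8 ATAC-seq libraries of the study, 2 knockout (KO) and 2 PMSG libraries, each deposited as its own list of accessible intervals. Intervals of the 4 lists on chromosomes 1 to 19 and X that shared at least 1 bp were merged, which gave 76402 regions. A region was called KO-only when both KO lists and neither PMSG list had an interval in it, and PMSG-only in the reverse case. There were 7243 KO-only regions (9.48% of all regions) and 7180 PMSG-only regions (9.40%).

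All mice were 21 days old and had been primed with 5 IU of eCG, the equine chorionic gonadotropin known as PMSG, 46 h before they were killed or given hCG (human chorionic gonadotropin). The PMSG libraries came from wild-type mice of the strain CBA x C57BL/6 F1 that received no hCG. The KO libraries came from mice labelled PR knockout of the strain C.129S7(B6)-Pgrtm1Bwo/OmcJ, killed 6 h after 5 IU of hCG. A replicate pooled cells of 2 to 3 mice, and every group had 2 replicates. The other 4 libraries served for reference: 2 titled hCG, from the strain of the PMSG mice, and 2 wild-type (WT) libraries after hCG that carry the strain label of the knockouts. The time tags contradict the titles, since the PMSG libraries are tagged 6 h and the hCG libraries 0 h after hCG. Titles, which match the source names pre- and peri-ovulatory for these libraries, were followed. The KO and WT libraries carry a pre-ovulatory source name beside a 6 h tag, and by the design text they too were collected after hCG. The KO and PMSG groups differ in hCG, in Pgr genotype, in strain, in experiment and possibly in the authors' processing, and these cannot be told apart in the comparison. A pair of libraries also cannot separate a change in each cell from a change in the mix of cells.

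Granulosa cells surround the oocyte in the ovarian follicle. The surge of luteinising hormone (LH), which hCG mimics, acts on their LH receptor and raises cyclic AMP, and the cells then produce EGF-like ligands, prostaglandins and a hyaluronan matrix, turn to progesterone synthesis and take part in ovulation. Pgr encodes the progesterone receptor, a nuclear receptor that granulosa cells express for a short time after the surge and without which mice do not ovulate. In ATAC-seq the transposase Tn5 inserts adapters into open chromatin, so that an interval in a list marks DNA accessible enough for the authors' peak caller.

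Few of the regions that separated KO from PMSG cells lay at an annotated start site, and 5 of the promoters that did are shown here with their sequence as examples to which the results refer. Each line gives the 250 bases before a start site, which can be one of several of the gene, 5′ to 3′ on the gene's strand, from the RefSeq promoter table of build GRCm38.p6, and capitals mark matches to the searched motifs GGAATG (TEAD) and TTGCNNAA (C/EBP) on either strand. Akr1c18 (chr13:4150647-4150896, minus strand), whose product inactivates progesterone, and Pparg (chr6:115421816-115422065, plus strand), a nuclear receptor gene on the list of PGR-dependent genes, have this window wholly inside a KO-only region. Slco2b1 (chr7:99706843-99707092, minus strand), an organic anion transporter gene, has 177 of the 250 bases in a KO-only region, and Ankrd1 (chr19:36119845-36120094, minus strand), a known target of the Hippo pathway, has 120. Col6a4 (chr9:106096692-106096941, minus strand), a collagen VI gene, lies wholly inside a PMSG-only region. The start sites shown for Pparg, 61.1 kb into the gene, and Slco2b1, 3.90 kb from the nearest gene end, are internal ones. Ankrd1 and Col6a4 were picked after their values were seen.
Akr1c18: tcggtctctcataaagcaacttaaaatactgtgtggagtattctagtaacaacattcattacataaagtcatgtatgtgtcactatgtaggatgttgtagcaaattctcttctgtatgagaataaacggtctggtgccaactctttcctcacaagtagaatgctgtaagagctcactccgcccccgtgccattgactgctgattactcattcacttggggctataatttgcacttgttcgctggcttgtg
Pparg: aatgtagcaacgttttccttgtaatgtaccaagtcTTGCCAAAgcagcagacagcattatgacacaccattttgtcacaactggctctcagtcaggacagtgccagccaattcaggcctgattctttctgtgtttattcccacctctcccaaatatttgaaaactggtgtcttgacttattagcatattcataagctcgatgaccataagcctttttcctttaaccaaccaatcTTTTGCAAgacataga
Slco2b1: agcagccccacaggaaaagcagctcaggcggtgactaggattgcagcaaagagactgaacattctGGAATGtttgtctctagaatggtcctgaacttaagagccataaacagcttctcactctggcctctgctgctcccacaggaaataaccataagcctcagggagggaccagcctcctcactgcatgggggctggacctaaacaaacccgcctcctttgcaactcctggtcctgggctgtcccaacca
Ankrd1: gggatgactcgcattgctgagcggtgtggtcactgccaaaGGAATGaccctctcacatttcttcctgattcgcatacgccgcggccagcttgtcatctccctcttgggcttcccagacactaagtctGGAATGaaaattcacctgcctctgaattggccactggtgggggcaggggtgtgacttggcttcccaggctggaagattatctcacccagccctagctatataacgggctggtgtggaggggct
Col6a4: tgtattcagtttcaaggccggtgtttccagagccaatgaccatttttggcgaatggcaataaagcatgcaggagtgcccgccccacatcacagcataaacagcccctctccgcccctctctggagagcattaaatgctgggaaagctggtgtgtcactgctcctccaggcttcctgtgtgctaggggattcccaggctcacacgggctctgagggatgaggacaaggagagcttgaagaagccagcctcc
The matches start at position -185 from the start site shown for Slco2b1, at -210 and -123 for Ankrd1, and at -215 and -16 for Pparg. The Ankrd1 match at -123 lies outside the KO-only region, and the other marked matches lie inside theirs. The windows of Akr1c18 and Col6a4 hold none of the 11 motifs searched.

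The KO lists had 58851 and 55654 intervals and the PMSG lists 57992 and 58780, so the groups were of like length (57252 ± 2261 and 58386 ± 557, SD, n = 2 each). Covered sequence was 38.9 and 31.7 Mb in KO and 29.8 and 29.9 Mb in PMSG, with a median interval of 552 and 456 bp in KO against 422 and 412 bp in PMSG. KO replicate 1 therefore had wider intervals than the other 3 libraries. Read numbers are not part of the lists, and the depth behind an interval is therefore unknown. At the targeted gene, both PMSG lists had 1 interval within Pgr near one end of the gene (chr9:8900003-8901941 in replicate 1), with a fold of 5.33 and 6.35. Both KO lists had 2 intervals there instead, of which the first ended at the same base, 8901045, and the second began at 8901318 in replicate 1 and 8901440 in replicate 2. All 8 granulosa markers, Fshr, Foxl2, Cyp19a1, Amh, Inha, Nr5a2, Wt1 and Hsd17b1, had a region held by all 4 libraries within 10 kb. So did 5 of 6 theca, 4 of 6 leukocyte, 4 of 6 endothelial and 4 of 6 oocyte markers, among which Adgre1, Emcn, Bmp15 and Nlrp5 had no region at all.

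Shared sequence was measured by the base-pair Jaccard index, the length 2 lists share over the length either covers. It was 0.720 between the KO replicates and 0.810 between the PMSG replicates. Between the groups it was 0.562 and 0.565 for KO replicate 1 with the PMSG replicates, and 0.627 and 0.633 for KO replicate 2 (0.597 ± 0.0385, SD over 4 pairs). Both pairs within a group thus lay above all 4 pairs between groups, and KO replicate 2 was the closer of the KO libraries to PMSG. Similarity within exceeded that between groups by 0.168, with an exact two-sided permutation p of 0.33, the smallest that 2 libraries against 2 allow. For reference, the 4 pairs of a KO with an hCG library had an index of 0.691 ± 0.0369 (SD over 4 pairs).

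All 4 libraries held 39801 regions (52.1%). The KO-only and PMSG-only sets were the next largest patterns, at 7243 and 7180. Regions held by KO replicate 1 alone numbered 5802 and by KO replicate 2 alone 1754, and those held by 1 PMSG library alone numbered 2575 and 2793. Regions that paired 1 KO with 1 PMSG library were few, between 288 and 532 for each of the 4 pairings. With the best 55654 intervals by fold from each list, 7164 of 74619 regions were KO-only (9.60%) and 6756 were PMSG-only (9.05%). A distance of more than 500 bp to any interval of the other group was kept by 7087 KO-only and 6975 PMSG-only regions. Leaving out KO replicate 2 gave 13093 KO-only regions, the one omission that moved either count by over 1.5 times.

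**Figure D1:**
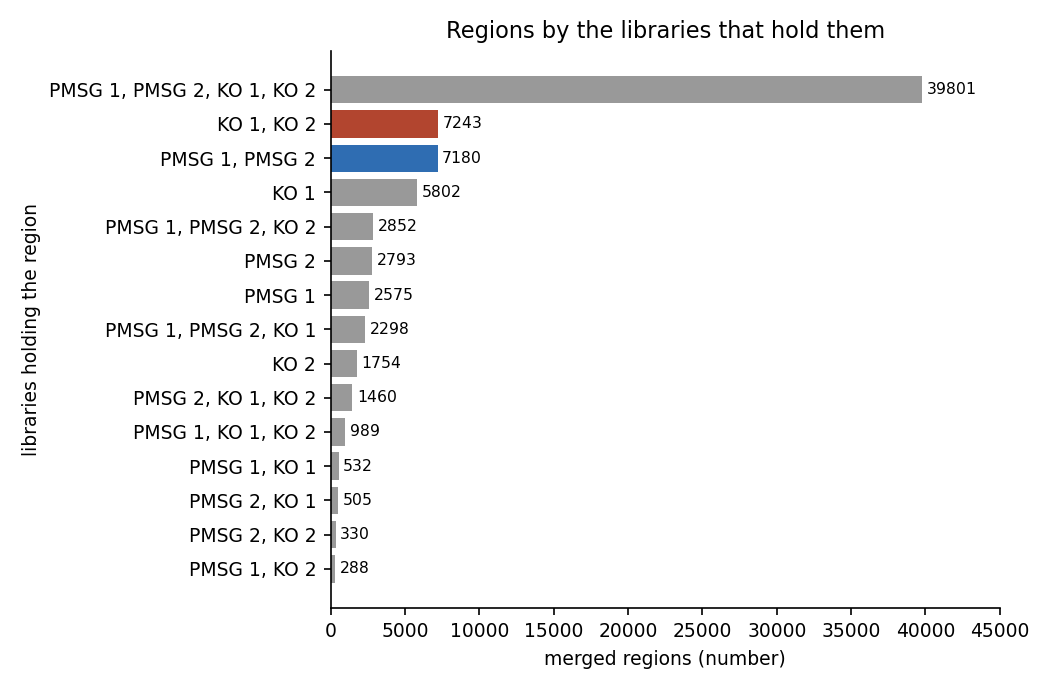
Number of merged regions (horizontal axis) for each combination of the 2 KO and 2 PMSG libraries that hold them (vertical axis); red is KO-only and blue is PMSG-only. After the 39801 regions held by all 4 libraries, the KO-only (7243) and PMSG-only (7180) sets are the largest.

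The KO-only and PMSG-only sets were nearly equal in number, whereas for the reference groups after hCG, set against the same PMSG libraries with all intervals, they were not. The hCG libraries had 14473 regions absent from PMSG and lacked 8511 that PMSG held, and the WT libraries had 19876 and 2346. With 55654 intervals from each list, the pair of counts was 11611 and 10285 for hCG, 9534 and 8041 for WT, and 7164 and 6756 for KO. At this matched length KO had the fewest regions of both kinds. Both kinds need the 2 replicates to agree, and the KO replicates agreed least. Their Jaccard index was 0.720, against 0.767 in WT, 0.810 in PMSG and 0.833 in hCG. The part of replicate agreement in these counts was not tested. The 3 comparisons share the PMSG libraries and the groups differ in strain, so these counts are given side by side only, and their difference was not tested.

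Regions of both sets ranked lower than those held by all 4 libraries, and lay farther from genes' ends. Median merged width was 395 bp for KO-only, 289 bp for PMSG-only and 768 bp for regions held by all 4, which join intervals of 4 lists instead of 2, so the widths are not compared. By the authors' fold (enrichment at a summit over the caller's background, ranked within its list from 0 to 100), the median rank was 38.0 for KO-only and 31.0 for PMSG-only regions, against 60.6 in KO and 62.4 in PMSG for regions held by all 4. The median distance to the nearest end of a protein-coding gene was 27.1 kb for KO-only, 26.2 kb for PMSG-only and 9.47 kb for regions held by all 4. A protein-coding gene body held 54.8% of KO-only and 54.7% of PMSG-only regions. A promoter window (250 bases before to 50 after a start in the RefSeq table) was overlapped by 71 of 6988 KO-only regions (1.02%, with a Wilson 95% interval from 0.806 to 1.28) and by 68 of 6929 PMSG-only ones (0.981%, from 0.775 to 1.24) on the chromosomes for which the table has windows. The share was 25.8% (25.3 to 26.2) for regions held by all 4 libraries. The intervals of the KO-only and PMSG-only sets overlap, and cover counting error only. With the best 20000 intervals of each list the shares were 4.74% and 10.5%, with intervals covering 50% of a region 2.82% and 1.07%, with 1 kb around gene ends and start sites 4.82% and 4.62%, and without KO replicate 1 0.950% and 1.54%. By chromosome, KO-only regions made up between 8.46% (chromosome 11) and 10.7% (chromosomes 13 and 16), and PMSG-only regions between 7.79% (chromosome 9) and 11.0% (X). Within 10 Mb of Pgr, 34 of 256 regions were KO-only (13.3%, 9.66 to 18.0) and 16 were PMSG-only (6.25%, 3.88 to 9.91), against 9.47% and 9.41% elsewhere.

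The hCG and WT lists had no part in choosing the regions, so presence in them is a separate measurement. Most KO-only regions were also open in wild-type cells after hCG. They were held by hCG replicate 1 in 86.6%, by hCG replicate 2 in 84.1%, by WT replicate 1 in 96.0% and by WT replicate 2 in 99.1%. Both hCG libraries held 5942 of 7243 (82.0%, Wilson 95% interval 81.1 to 82.9), both WT libraries 95.7%, and all 4 of these libraries 5826 (80.4%). Over all 76402 regions these shares were 70.3%, 82.7% and 67.7%. Another 665 KO-only regions (9.18%) were held by both WT libraries and neither hCG library, near the 9.26% over all regions, and 28 (0.387%) by none of these 4 libraries, against 6.13% over all regions. KO-only regions that only a knockout library showed were thus rare in these lists.

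PMSG-only regions were mostly missing from the hCG libraries, and their share in the WT libraries was higher than in hCG but below that over all regions. Neither hCG library held 5028 of 7180 (70.0%, 69.0 to 71.1), against 22.5% over all regions, and both hCG libraries held 19.2%. WT replicate 1 held 64.4% of them and WT replicate 2 held 37.2%, against 89.0% and 86.2% over all regions. The WT lists are the longest of the study, with 80137 and 84313 intervals. No library after hCG, hCG or WT, held 1650 PMSG-only regions (23.0%, against 6.13% over all regions). Both WT libraries but neither hCG library held 1151 (16.0%, against 9.26%), and WT replicate 1 alone held 2084 (29.0%, against 5.41%). The 2 WT libraries therefore gave different pictures of this set, while the 2 hCG libraries differed little (26.5% and 22.7% held).

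**Figure D2:**
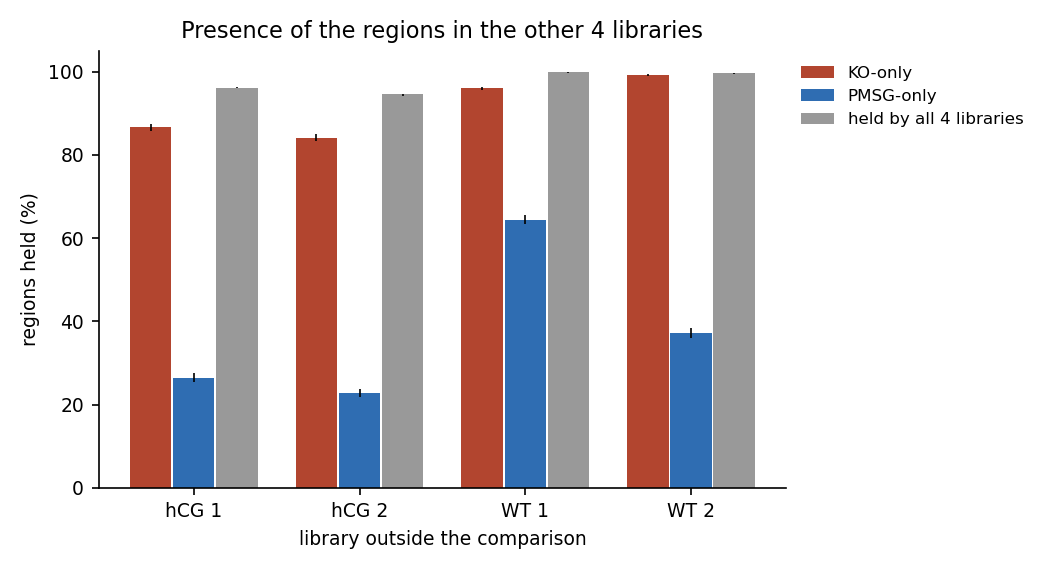
Share of KO-only (red), PMSG-only (blue) and all-4-library regions (grey) held by each library outside the comparison (vertical axis, %); bars start at 0 and lines are Wilson 95% intervals for counting error. The hCG libraries hold 86.6% and 84.1% of KO-only but 26.5% and 22.7% of PMSG-only regions, and the WT libraries hold 64.4% and 37.2% of the latter.

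The single KO libraries differed in what they shared with hCG. Of the 2298 regions that both PMSG libraries and KO replicate 1 alone among the knockouts held, 21.9% were absent from both hCG libraries. Of the 2852 held by both PMSG libraries and KO replicate 2 alone among the knockouts, 56.9% were. Regions held by KO replicate 1 and no other of the 4 libraries were in both hCG libraries in 53.8%, and those of KO replicate 2 in 24.7%. KO replicate 2 thus kept more regions that PMSG cells have and hCG cells lack. Without KO replicate 1, 58.1% of PMSG-only regions were absent from both hCG libraries, and without KO replicate 2, 66.3%.

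The share of KO-only regions held by the other libraries rose with rank, while the share of PMSG-only regions absent from hCG did not. Among the best quintile of KO-only regions by mean rank over the KO lists, 94.8% were held by the hCG and WT libraries alike, and this fell over the next quintiles to 87.2%, 79.4%, 73.3% and 67.4%. Of the best 100, all hCG and WT libraries held 99. Among PMSG-only regions the share absent from both hCG libraries was 63.9% in the best quintile and 71.9% in the lowest. Of the best 100, neither hCG library held 47 and both held 45. Both hCG libraries and neither WT library held 23 of these best 100, against 5.14% of all PMSG-only regions. In this last pattern the libraries with an interval share a strain and an experiment, as do those without one.

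**Figure D3:**
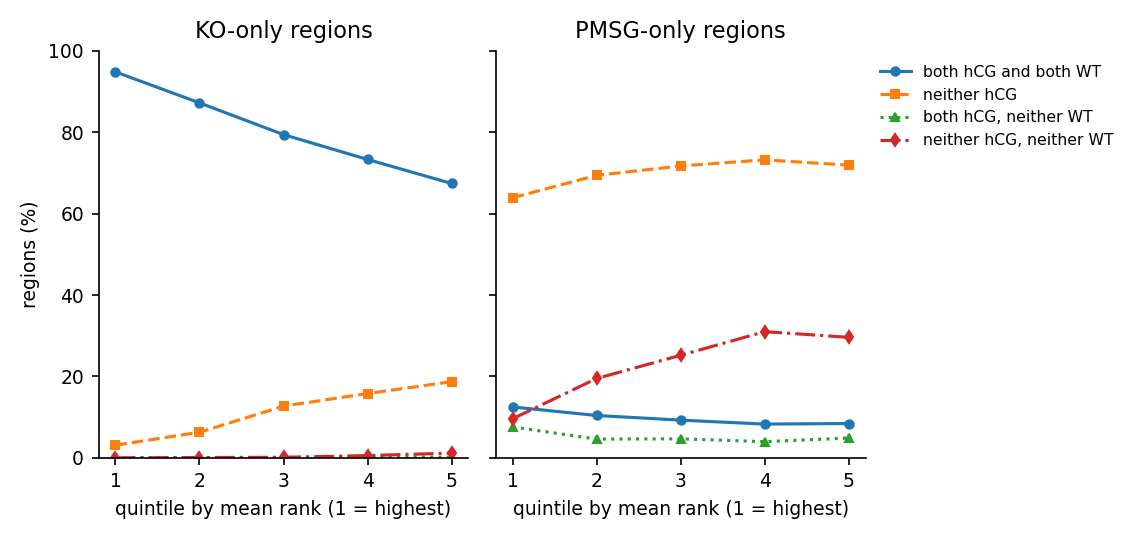
Share of KO-only (left) and PMSG-only regions (right) with the named presence in the 4 other libraries (vertical axis, %) by quintile of mean rank, 1 being the highest (horizontal axis). The share of KO-only regions held by all hCG and WT libraries falls from 94.8% to 67.4%, while absence from both hCG libraries is 63.9% in the best and 71.9% in the lowest quintile of PMSG-only regions.

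The best ranked KO-only region lay inside Cfap299 (chr5:98516113-98516709), 187 kb from the nearest gene end. Its fold was 18.7 and 19.4 in KO, 19.9 and 20.3 in hCG, and 19.8 and 22.5 in WT, with no interval in PMSG. The other 9 lay inside Phactr1, Zfp871, Xrcc4, Alk and Sema3a, or nearest to Itga1, Gm46240, Tnc and Gm6657. All 10 were present in both hCG and both WT lists. The Zfp871 region lay 0.526 kb from a gene end and the others 12.1 kb (Alk) or more.

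The best ranked PMSG-only regions lay nearest to or in Col19a1, Raet1d, Sfpq, Gm40469, 4930444G20Rik, Creb3l2, Otud7a, BC030500, Celf4 and St8sia4. Both hCG libraries held 9 of these 10, the exception being the St8sia4 region. Neither WT library held those of Raet1d, Gm40469, 4930444G20Rik, Creb3l2 and Otud7a. The Raet1d region (chr10:22402540-22402859) had a fold of 22.9 and 24.2 in PMSG and of 23.5 in each hCG library, and no interval in any KO or WT library. The Creb3l2 region (chr6:37463928-37464685) had 20.2 and 20.4 in PMSG, 18.0 and 18.4 in hCG, and again none in KO and WT. Of these 10, then, 5 had an interval in all libraries of the LH experiment, titled hCG or PMSG, and in none of the KO and WT libraries. Reads that fit several copies of a sequence, as in the Raet1 gene family, were not examined. Names in the KO and WT lists also carry a filtering prefix that the other lists lack. Absence from KO is therefore uncertain for these entries. The St8sia4 region (chr1:96133435-96133957) had 18.8 and 21.4 in PMSG, none in hCG, and 6.63 in WT replicate 1 alone.

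At promoters most KO-only regions were present in the other libraries after hCG, though at a lower share than in the whole KO-only set. The PMSG-only promoter regions went against the whole PMSG-only set. KO-only regions overlapped 71 of 21045 promoter windows (0.337%) and PMSG-only regions 72 (0.342%). The 10 best ranked KO-only promoters were those of Dnmt3l, Klrb1a, Slco2b1, Akr1c18, Hal, Gpr4, H2-Eb1, Vnn3, Pik3c2g and Cxcr3, of which those of Dnmt3l (8.80 kb from the nearest gene end), Slco2b1 and Pik3c2g (128 kb) are internal start sites. At the Akr1c18 promoter, whose sequence is given above, the fold was 11.8 and 9.91 in KO, 9.90 and 8.89 in hCG, and 12.2 and 14.5 in WT, with no interval in PMSG. At Slco2b1 it was 11.8 and 10.3 in KO, 8.75 and 9.18 in hCG, and 10.2 and 14.8 in WT. Every library after hCG therefore had an interval at the Akr1c18 promoter and this Slco2b1 start site, KO and wild-type alike. At Ankrd1 the KO libraries had 12.6 and 7.66, the hCG libraries 11.9 and 11.4, and the WT libraries 9.89 and 16.0. The promoter of H2-Eb1, an MHC class II gene, stood apart, with 10.3 and 11.4 in KO, 13.6 and 15.0 in WT, and no interval in any library of the LH experiment. Of the 71 KO-only promoter regions, 51 were held by all hCG and WT libraries and 10 by both WT but neither hCG library. These shares were 80.4% and 9.18% over all KO-only regions, and 67.7% and 9.26% over all regions.

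The 10 best ranked PMSG-only promoters were those of LOC108167368, Zfp33b, Tcte3, Zfp994, Zfp808, Gm5784, Gm3325, Raet1e, Abca14 and Stac. Both hCG libraries held all 10, and neither WT library held those of LOC108167368, Zfp33b, Tcte3, Zfp994 and Gm3325. At Zfp33b the fold was 18.0 and 18.2 in PMSG and 16.1 and 17.9 in hCG, with no interval in KO and WT. Several of these belong to gene families with similar copies, such as the zinc finger and Raet1 genes. Reads that fit several copies were not examined, so these entries are uncertain. Of all 68 PMSG-only promoter regions, 44 were held by both hCG libraries and 19 by neither, whereas over all PMSG-only regions 19.2% were held by both and 70.0% by neither. Only 7 were absent from all hCG and WT libraries: Col6a4, Gm826, 1700019N19Rik, Fam25c, Arhgef16, Serpina3a and Zeb2. Col6a4, the best ranked of the 7, had a fold of 10 and 10.7 in PMSG and no interval in any other library.

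Motif matches in these windows were counted on both strands and are descriptions of letters only. The steroid receptor motif AGAACA was in 21 of 72 PMSG-only windows (29.2%, Wilson 95% interval 19.9 to 40.5), in 10 of 71 KO-only windows (14.1%, 7.83 to 24.0) and in 16.3% of all 21045 windows. This motif can overlap the receptor palindrome ACANNNTGT, which was in 9.72% of PMSG-only, 8.45% of KO-only and 6.03% of all windows. NR5A, CAAGGTCA, was in 6.94% of PMSG-only (3.00 to 15.2), 1.41% of KO-only and 1.29% of all windows. RUNX, TGTGGTT, was in 8.45% of KO-only (3.93 to 17.2), 1.39% of PMSG-only and 4.74% of all windows. ETS, CCGGAAG, was in 2.82% of KO-only and 8.33% of PMSG-only windows, against 18.1% of windows in regions held by all 4 libraries and 11.7% of all. The C/EBP motif TTGCNNAA was in 14.1% of KO-only, 11.1% of PMSG-only and 10.3% of all windows, and TEAD, GGAATG, in 11.3%, 9.72% and 13.5%. AP-1 (TGANTCA) was in 7.04% of KO-only, 8.33% of PMSG-only and 7.04% of all windows. The FOXO motif GTAAACA was in none of the 71 KO-only windows, with an upper Wilson bound of 5.13%, and in 2.78% of PMSG-only and 3.03% of all windows. The same held for AGATAAG, the motif of the family of Gata4, which was in none of the KO-only, 4.17% of PMSG-only and 2.63% of all windows. The cAMP element TGACGTCA was in 1.41%, 1.39% and 2.26%. With about 70 windows a set, the intervals are wide, and no motif was tested.

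Regions were next assigned to genes, taking the gene body with 10 kb on either side. A KO-only region lay around 3814 of 21631 protein-coding genes (17.6%) and a PMSG-only region around 3947 (18.2%). Of all regions around protein-coding genes, 8.51% were KO-only and 8.44% PMSG-only. Most KO-only regions were found around Auts2 (12, with 5 PMSG-only), Msi2 (11 and 0), Runx2 (11 and 0), Babam2 (10 and 3), Lpp (10 and 6), Mast4 (10 and 4), Pakap (10 and 3), Etv6 (9 and 7), Ext1 (9 and 0) and Foxp1 (9 and 1). Most PMSG-only regions were found around Macrod2 (10, with 4 KO-only), Ptprd (10 and 2), Robo2 (10 and 4), Dock1 (9 and 4), Lsamp (9 and 0), Pde11a (9 and 0), Ptprg (9 and 6), Magi1 (8 and 5), Etv6 (7 and 9) and Grid1 (7 and 0). These are long genes, between 234 kb (Etv6) and 2271 kb (Ptprd). Around Msi2, Runx2 and Ext1 the difference ran to KO, and around Lsamp, Pde11a and Grid1 to PMSG, with no region of the opposite kind. Both WT libraries held all 11 KO-only regions at Runx2 and both hCG libraries held 10 of them. At Pde11a, neither hCG library held 7 of the 9 PMSG-only regions and neither WT library held 7.

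Around genes known to be induced by LH, KO-only regions outnumbered PMSG-only regions. This list, like the others, was chosen with earlier results of these data known, so its counts are descriptive only. The 17 LH-induced genes had 122 regions, of which 25 were KO-only (20.5%) and 3 PMSG-only (2.46%). KO-only regions lay around 9 of the 17 genes, and 20 of the 25 were held by both hCG libraries. Over all KO-only regions that share was 82.0%. Runx2, a transcription factor of the Runt family, gave 11 of the 25. Without it the list had 14 KO-only and 3 PMSG-only of 94 regions (14.9% and 3.19%). Without KO replicate 2 it had 34 KO-only and 8 PMSG-only regions, and without PMSG replicate 2 30 and 6. Btc and Ereg, which encode EGF-like ligands, had 4 and 3 KO-only regions, Star, the carrier of cholesterol into mitochondria, had 2, and Cyp11a1, Nrip1, Runx1, Sult1e1 and Tnfaip6 had 1 each. Runx1 had 2 PMSG-only regions and Tnfaip6 had 1. Without KO replicate 1, Nrip1 had 4 and Runx1 3 KO-only regions, and without KO replicate 2 Runx1 had 4 PMSG-only regions. Areg, Ptgs2, Has2, Ptx3, Cebpb, Sphk1, Pgr and Adamts1 had neither kind.

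Runx2 had the most KO-only regions of the list, most of them weak. Its 28 regions comprised 11 KO-only, 10 held by all 4 libraries and 7 of other patterns. The KO-only regions lay between 2.80 and 268 kb into the gene from its start. Of the 11, 10 ranked below the median of all KO-only regions (38.0), between 2.61 and 22.1. The one nearest the start (chr17:44811614-44812386) had a fold of 5.10 and 5.78 in KO, 6.53 and 6.09 in hCG, and 5.53 and 6.62 in WT. The best ranked (chr17:44546813-44547181) had 9.28 and 5.72 in KO, 8.12 and 9.26 in hCG, and 11.6 and 13.6 in WT. The exception to presence in hCG was the region 124 kb from the start (chr17:44690483-44691017), with 3.69 and 4.25 in KO, 3.46 and 3.59 in WT and no interval in hCG. With the same number of intervals per list Runx2 had 9 KO-only and 0 PMSG-only regions.

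**Figure D4:**
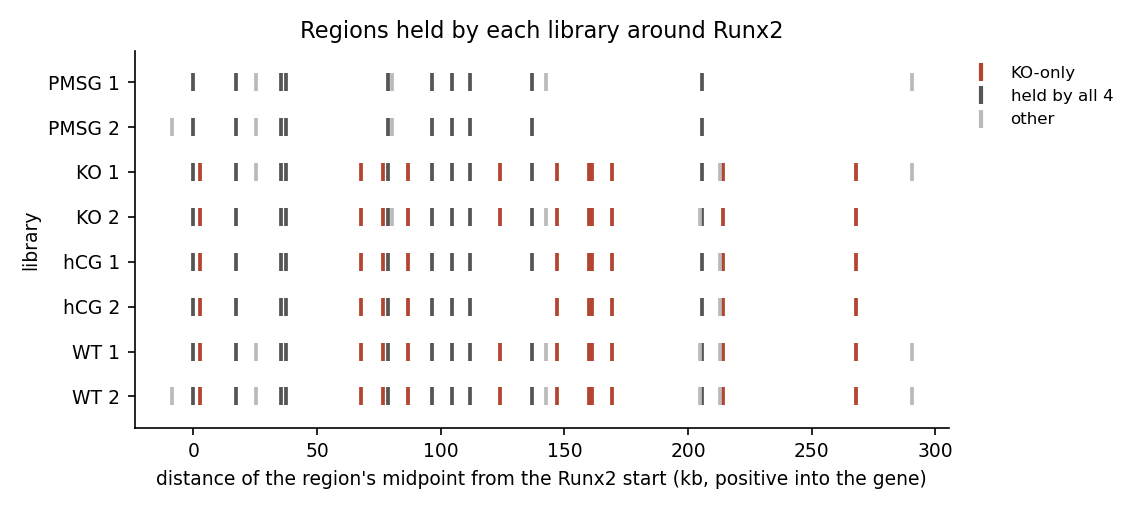
Regions around Runx2 by distance of their midpoint from the gene's start (kb, positive into the gene) in each of the 8 libraries (rows); a tick means that the library has an interval there, red ticks are KO-only regions, dark ticks regions held by all 4 KO and PMSG libraries, light ticks other patterns. The 11 red positions are absent from both PMSG rows, and 10 of them are present in both hCG rows.

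The EGF and cAMP signalling list shares Areg, Ereg and Btc with the LH-induced list. Of the 170 regions around its 14 genes, 35 were KO-only (20.6%) and 6 PMSG-only (3.53%). Both hCG libraries held 27 of the 35, and over all KO-only regions 82.0%. Without KO replicate 2 the counts were 55 and 12, and without either PMSG library 41 and 11 (replicate 1) or 40 and 11 (replicate 2). Pde10a and Pde4d, phosphodiesterases that break down cyclic nucleotides, had 8 and 7 KO-only regions and no PMSG-only region. Without KO replicate 2, Pde4d had 12 KO-only regions. Without PMSG replicate 1, Pde10a had 3 PMSG-only regions and Pde4d 1, and without PMSG replicate 2 each had 1. The strongest at Pde4d (chr13:109352544-109352810) had a fold of 14.5 and 10.5 in KO, 8.35 and 6.92 in hCG, and 14.3 and 14.7 in WT. At Pde10a the best ranked (chr17:8562129-8563011) had 11.3 and 10.2 in KO, 13.7 and 14.9 in hCG, and 14.5 and 16.8 in WT. At Btc (chr5:91375521-91375962) the fold was 16.1 and 9.81 in KO, 16.1 in each hCG library, and 19.9 and 20.1 in WT. These regions were therefore shared by every library after hCG and by no PMSG library. Egfr, the receptor of the EGF-like ligands, had 4 KO-only and 2 PMSG-only regions, and Nrg1, another ligand gene of the family, had 2 and 1. Pde4b and Prkar2b had 2 and 1 each, Crem 2 and 0, Rgs2 1 and 0, and Mapk6 0 and 1. Without KO replicate 2 Pde4b had 8 KO-only regions, and without KO replicate 1 Prkar2b had 5. Areg, Creb1 and Dusp1 had neither.

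At Ereg the count rested on weak intervals. Its 3 KO-only regions had a mean rank of 2.33, 18.1 and 4.37, and 1 was KO-only with the same number of intervals per list. Foxo1, with 4 KO-only regions of rank 0.509 to 6.02, likewise went to 1. At this length Cyp11a1, Esr2, Foxl2, Hsd17b1, Jun, Rb1, Rgs2, Scarb1 and Timp1 lost their only KO-only region. Foxo1, Lhcgr, Pde4b, Prkar2b and Vcan lost their only PMSG-only region. Nrip1 and Nr5a1 instead went from 1 KO-only region to 3, and Gata4, Gja1, Cdkn1b and Mapk6 gained 1.

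Around genes described as PGR-dependent the 2 kinds were nearly equal in number. Their 70 regions had 5 KO-only (7.14%) and 4 PMSG-only (5.71%), beside 8.51% and 8.44% around all protein-coding genes. Without KO replicate 2 the counts were 17 and 8. The KO-only regions lay at Pparg (2), Prkg2 (2) and Zbtb16 (1). Both hCG libraries held all 5, and over all KO-only regions 82.0%. At the internal start site of Pparg, 61.1 kb into the gene, the fold was 7.59 and 6.08 in KO, 8.49 and 8.55 in hCG, and 6.96 and 8.06 in WT. Zbtb16, a zinc finger transcription factor, had 3 PMSG-only regions beside its KO-only one, and Vcan, the matrix proteoglycan versican, had 1. Without KO replicate 2 Zbtb16 had 3 KO-only and 4 PMSG-only regions. The KO-only region of Zbtb16 (chr9:48806561-48807094) had 14.9 and 8.63 in KO, 14.4 and 13.2 in hCG, and 15.5 and 15.9 in WT. Of the 3 PMSG-only regions of Zbtb16, both WT libraries held all and both hCG libraries 2, so that for 2 of them KO was the group after hCG without an interval: at chr9:48786921-48787426 the fold was 6.26 and 6.19 in PMSG, 5.72 and 5.75 in hCG, and 7.78 and 8.18 in WT. Adamts1, Edn2, Epas1, Hif1a, Adcyap1, Cxcr4, Il6, Ctsl and Snap25 had neither kind.

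Genes typical of granulosa cells before the surge had regions of both kinds. Of 136 regions, 15 were KO-only (11.0%) and 10 PMSG-only (7.35%), and neither hCG library held 7 of the 10. Over all PMSG-only regions that share was the same, at 70.0%. Cyp19a1, the aromatase gene, had 1 PMSG-only region (chr9:54234570-54234803), with a fold of 9.03 and 9.29 in PMSG and no interval in any library after hCG. Fshr, the receptor of follicle-stimulating hormone, had 1 PMSG-only region, with 7.63 and 6.98 in PMSG, none in hCG, and 4.45 and 4.70 in WT. At Inhba, which encodes an activin and inhibin subunit, 3 regions were of each kind; the strongest PMSG-only one (chr13:16005640-16005945) had 8.55 and 8.64 in PMSG, none in hCG, and 3.48 and 3.39 in WT. Lhcgr, the LH receptor gene, went mostly to KO, with 2 KO-only and 1 PMSG-only region; its best ranked KO-only one (chr17:88777719-88778176) had 10.6 and 8.52 in KO, 10.3 and 10.9 in hCG, and 8.31 and 13.1 in WT. Foxo1 had 4 and 1, Nr5a2 2 and 0, Nr5a1, Foxl2 and Hsd17b1 1 and 0, Esr2 1 and 2, and Ccnd2 0 and 1. The KO-only regions of Foxl2, Hsd17b1, Esr2 and Nr5a2 were weak, with ranks from 0.378 (Foxl2) to 6.73 (Nr5a2). Nr5a2 had 8 KO-only regions without KO replicate 1 and 5 without KO replicate 2, and without KO replicate 2 Foxo1 and Esr2 had 4 PMSG-only regions each. Cyp19a1 had 2 KO-only and 3 PMSG-only regions without KO replicate 2. Inha, Inhbb, Amh and Gja1 had neither. The balance of this list depended on the gene flank and on single libraries: with 50 kb on either side it had 18 KO-only and 21 PMSG-only regions, without KO replicate 1 29 and 12, and without KO replicate 2 24 and 24. With the same number of intervals per list it had 10 and 5.

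**Figure D5:**
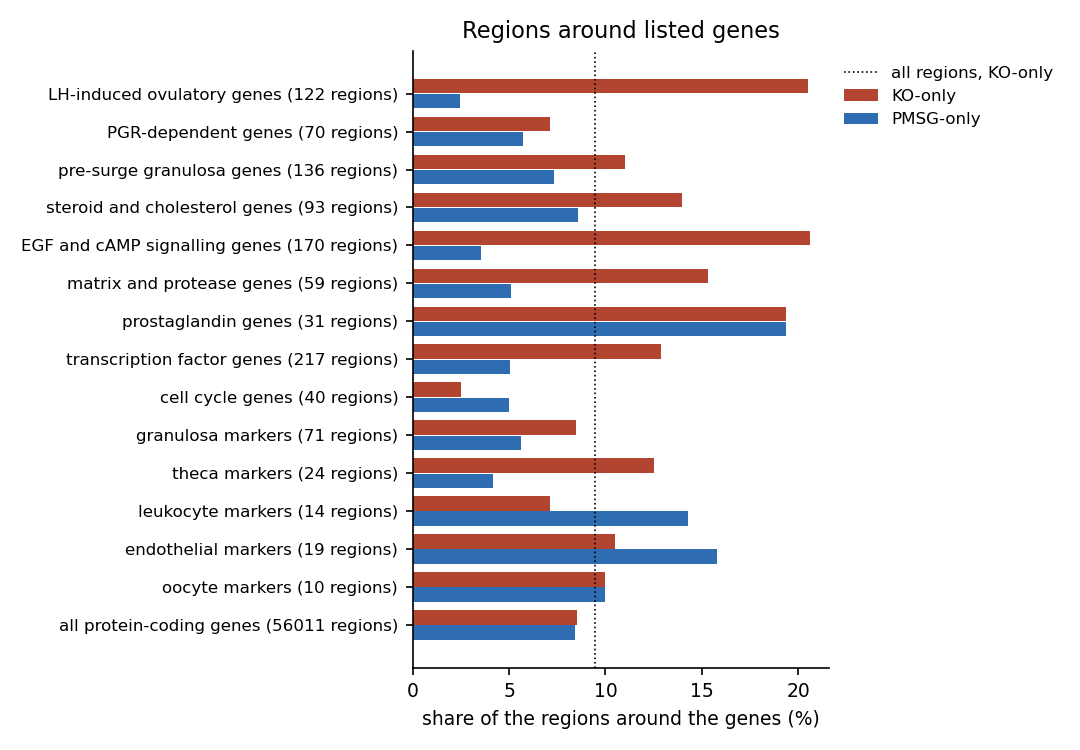
Share of the regions around the genes of each list (body with 10 kb on either side) that were KO-only (red) or PMSG-only (blue), horizontal axis in % from 0, with the number of regions in brackets and a dotted line at 9.48%. The LH-induced (20.5% and 2.46%) and the EGF and cAMP signalling lists (20.6% and 3.53%) have the widest gaps between the colours. The lists were chosen with earlier results of these data known.

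Steroid and cholesterol genes had 13 KO-only (14.0%) and 8 PMSG-only (8.60%) of 93 regions. Neither hCG library held any of the 8, and over all PMSG-only regions 70.0% were absent from both. The kinds were about equal with the same number of intervals per list, at 9 and 8, with 50 kb on either side, at 22 and 19, and without KO replicate 2, at 16 and 13. Akr1c18 had a second KO-only region (chr13:4160071-4160943) with 10.7 and 10.4 in KO, 9.49 and 12.4 in hCG, and 7.28 and 13.1 in WT, and 1 PMSG-only region of low rank. Star had 2 KO-only regions, of which the better ranked (chr8:25799765-25800485) lies inside the neighbouring gene Lsm1 and counts for Star by the 10 kb flank alone. It had 7.09 and 9.72 in KO, 7.67 and 7.06 in hCG, and 9.38 and 10.5 in WT. Abca1, a cholesterol exporter, had 3 of each kind, and Scarb1, the receptor of high-density lipoprotein, had 1 and 2. Npc1, Hsd3b1, Cyp11a1 and Hsd17b1 had 1 KO-only region each, and Hsd17b7 and Cyp19a1 1 PMSG-only region each. Fdx1, Hmgcs1 and Sqle had neither.

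Matrix and protease genes had 9 KO-only (15.3%) and 3 PMSG-only (5.08%) of 59 regions. Without KO replicate 2 the counts were 20 and 3, and without PMSG replicate 2 12 and 5. With 50 kb on either side they were 14 and 11. All 9 KO-only regions were in both hCG libraries and none of the 3 PMSG-only regions was in either. Over the whole sets these shares were 82.0% and 70.0%. Plau and Plat, the urokinase and tissue plasminogen activators, had 2 KO-only regions each, and Cd44, Hapln1, Timp1, Timp3 and Tnfaip6 had 1 each. At Plau (chr14:20850585-20851049, 7.43 kb outside the gene) the fold was 11.1 and 11.3 in KO, 10.1 and 11.5 in hCG, and 10.1 and 15.0 in WT. At Tnfaip6, whose product links hyaluronan in the cumulus matrix, 1 region was of each kind; the PMSG-only one had 8.55 and 6.90 in PMSG and no interval in any library after hCG. Timp1 and Vcan had the other 2 PMSG-only regions. Has2, Ptx3, Adamts1, Adamts4, Ctsl and Mmp19 had neither.

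Prostaglandin genes split by gene. Slco2a1, the prostaglandin transporter, had 5 KO-only and no PMSG-only region, the best ranked (chr9:103061709-103062124) with 11.4 and 6.04 in KO, 10.3 and 10 in hCG, and 11.6 and 9.69 in WT. Ptges, a prostaglandin E synthase, had 1 KO-only and 3 PMSG-only regions. The genes of the prostaglandin E receptors, Ptger2 and Ptger4, had 2 and 1 PMSG-only regions and no KO-only region. The PMSG-only region 6.37 kb before the start of Ptger2 (chr14:44981630-44981856) had 9.85 and 11.2 in PMSG, none in hCG, and 7.34 and 5.85 in WT. In all, the list had 6 of each kind of 31 regions (19.4% each). Ptgs2 and Hpgd had neither.

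Transcription factor genes had 28 KO-only (12.9%) and 11 PMSG-only (5.07%) of 217 regions, or 17 and 11 of 189 (8.99% and 5.82%) without Runx2. Around all protein-coding genes the shares were 8.51% and 8.44%, so without Runx2 the KO-only share was near that of all genes. With the same number of intervals per list the counts were 17 and 7, without KO replicate 1 43 and 16, and without KO replicate 2 45 and 21. Klf4 and Nfil3 had 2 KO-only regions each and no PMSG-only region, and Jun had 1. The region 9.26 kb before the start of Klf4 (chr4:55541507-55541970) had 15.1 and 7.91 in KO, 12.1 and 12.9 in hCG, and 13.4 and 15.9 in WT. Tead1, a transcription factor of the Hippo pathway, had 2 KO-only and 4 PMSG-only regions, and Foxo3 had 2 PMSG-only regions. The lean of Tead1 depended on single libraries. It had 4 of each kind without PMSG replicate 1, and 4 KO-only and 5 PMSG-only without KO replicate 2. Cebpa, Cebpb, Fos, Fosl1, Fosl2, Junb, Egr1, Nr4a1, Nr4a2, Bhlhe40, Gata4, Gata6 and Yap1 had neither. Cell cycle genes had 1 KO-only and 2 PMSG-only of 40 regions (2.50% and 5.00%), at Rb1 (1 each) and Ccnd2. The counts were 3 and 2 without KO replicate 2, and 2 and 5 without KO replicate 1. Ccnd1, Ccne1, Ccna2, Ccnb1, Cdkn1a, Cdkn1b, Cdkn2c, E2f1 and Myc had neither.

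Markers of other cell types had few regions in all, so their shares rest on 1 to 3 regions of a kind. Theca markers had 3 KO-only (12.5%) and 1 PMSG-only (4.17%) of 24 regions, all 3 at Ptch1. Leukocyte markers had 1 (7.14%) and 2 (14.3%) of 14, endothelial markers 2 (10.5%) and 3 (15.8%) of 19, and oocyte markers 1 and 1 of 10 (10% each). Around all protein-coding genes the shares were 8.51% and 8.44%. Granulosa markers had 6 and 4 of 71 (8.45% and 5.63%). The best ranked of these regions was KO-only at Wt1 (chr2:105168078-105168527), with 15.8 and 12.0 in KO, 13.0 and 14.2 in hCG, and 15.2 and 15.5 in WT. At Ptprc, a leukocyte gene, the PMSG-only region had 11.7 and 13.5 in PMSG and 4.79 in WT replicate 1 alone. The part of other cells in the KO-only and PMSG-only sets was not tested.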

How the data were processed

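ATAC-seq lists of 8 libraries were used, 2 per group. Per the submitters' processing notes, Bowtie2, MACS2 and the build mm10 were used, with versions and filters not given in the sources used here. The authors deposited 1 narrowPeak list per library, so replicates were called separately. Column 7 of the deposited lists was read as a fold, the ratio of a summit to the caller's background, and columns 8 and 9 of the deposited lists as −log10 of p and q. Names in the KO and WT lists carry a prefix on filtering and marked duplicates that the other lists lack. Summits sharing an interval were counted once, with the best fold. Merging, overlap (1 bp or more) and Wilson 95% intervals were computed in Python 3.11.15 with numpy 2.4.6, pandas 2.3.3 and scipy 1.17.1, and the merging was tested on simulated intervals. Ranks are percentiles of fold within a list, averaged over the lists of the group.

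Genes are the 21631 protein-coding genes of the RefSeq table (GRCm38.p6), and promoters its 21045 windows of 17274 genes. No genome was used, so motifs were searched in promoter windows alone. No region was tested singly, since 2 libraries stand against 2 and the lists hold no read numbers. The members and gene lists were chosen with earlier results of these data known. The named genes are the list genes, of which a few are not reported here, the 10 best ranked regions and promoters of each set, and the 10 genes with most regions of each kind. Ankrd1 and the 7 PMSG-only promoters absent from all hCG and WT libraries fall outside this rule and were named after their values were seen. Alternatives were list length, −log10 q, a −log10 q of 20 or more, the hold and absence rules, the gene flank, the promoter rule and leaving out each library.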

Additional observations from a re-analysis of the deposited data

Results flagged for a closer look

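Intervals on chromosome Y were left out of the comparison and appear in all 4 lists. There were 7 in PMSG replicate 1, 7 in PMSG replicate 2, 3 in KO replicate 1 and 4 in KO replicate 2. They are listed because the chromosome lies outside the measurement. Their origin was not tested.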

How the results depend on the processing

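No paired analysis was possible because the replicate numbers name libraries of different mice and no region was tested. The search for motifs in the central 300 bases of regions was not run, since it needs a genome. Similarity within minus between groups stayed positive under the 5 alternatives run for it (list length, rank by −log10 q, the best 20000 intervals, a −log10 q of 20 or more and the share of intervals), from 0.118 (share of intervals that overlap) to 0.172, each with an exact permutation p of 0.33.

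The best 20000 intervals of each list gave 2939 KO-only and 3152 PMSG-only regions, a ratio of 0.932, with 70.3% of KO-only in both hCG libraries, 78.6% of PMSG-only in neither, and 4.74% and 10.5% at a promoter. The same number of intervals by fold gave a ratio of 1.06 and shares of 74.6% and 74.6%, and by −log10 q 1.15, 76.1% and 77.5%. A −log10 q of 20 or more gave a ratio of 0.957 and 84.3% of KO-only in both hCG libraries. Asking that intervals cover 50% of a region gave 1.16, 80.2%, 71.3% and 2.82% of KO-only at a promoter. Counting 1 kb around gene ends and start sites gave 4.82% and 4.62%. The ratio was 1.01 in the report.

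Leaving out 1 library gave 8238 to 13093 KO-only and 9562 to 10067 PMSG-only regions, a ratio of 0.821 to 1.30, 69.4% to 82.5% of KO-only in both hCG libraries, 58.1% to 72.4% of PMSG-only in neither, and 0.950% to 1.27% and 0.930% to 1.54% at a promoter. The ratio therefore has no stable side of 1. KO-only minus PMSG-only regions turned from 5 to -3 for pre-surge genes with 50 kb flanks and from -1 to 1 for cell cycle genes without KO replicate 2 (-4 to 1 over the libraries left out). Beyond the numbers of intervals and libraries used, the cause of these moves was not tested. Unknown depth limits every statement of absence.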
